A study of Mus musculus with 6 samples.

Results

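The noncollagen glycoproteins and proteoglycans of the cardiac extracellular matrix were examined at the level of their transcripts. The 44 genes were chosen by symbol and not by a cut on their values, though with earlier results of these data known. They make up 44 of the 54532 gene identifiers in the deposited table. They were grouped by role into 13 adhesive and matricellular genes, 12 elastic fibre genes, 7 small leucine-rich proteoglycan genes, versican with a hyaluronan synthase (2 genes) and 10 basement membrane genes. Of the 44 genes, 39 reached an FPKM of at least 0.5 in at least 3 of the 6 libraries and were tested among 14225 genes. Tnc, Spp1, Cthrc1, Fbn2 and Has2 missed that minimum in most libraries and are described by their values alone. FPKM divides the reads of a gene by its exon length and by a denominator set for each library, so levels can be set side by side between genes.

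Young adult male C57BL/6 mice without any transgene received a high-fat diet, with 60% of kcal from fat, and the nitric oxide synthase inhibitor L-NAME at 0.5 g/L in drinking water. After 12 weeks of both, these animals served as a model of heart failure with preserved ejection fraction (HFpEF). Chow mice received standard chow and plain water for the same 12 weeks. Each group held 3 mice with 1 RNA-seq library per mouse, from tissue that the sample labels call heart and the study's methods call left ventricular myocardium.

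Matrix glycoproteins and proteoglycans fill the space between collagen fibres and join cells to them. Adhesive glycoproteins such as fibronectin bind integrins, and matricellular proteins such as periostin and SPARC adjust how cells read and assemble the matrix. Elastic fibres consist of an elastin core on a scaffold of fibrillin microfibrils, small leucine-rich proteoglycans coat collagen fibrils and set their spacing, and basement membranes of laminin, nidogen and perlecan surround cardiomyocytes and capillaries. In the heart most of the interstitial members are made by fibroblasts, which produce more of them during fibrosis, while basement membrane genes are also active in cardiomyocytes and endothelial cells.

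The libraries differed in ways that touch these genes. Between 13076772 and 16027084 reads per library could be recovered from the FPKM steps. Mitochondrially encoded genes took 24.0% to 26.0% of them in Chow, 22.6% and 20.1% in HFpEF replicates 1 and 2, and 7.17% in HFpEF replicate 3. On the first principal component of the tested genes (42.3% of variance) HFpEF replicates 1 and 2 lay at 11.6 and 12.7, HFpEF replicate 3 at 75.5 and Chow between −35.8 and −31.7. Transcripts that mark atrial muscle were present at a summed FPKM of 15.4, 18.2 and 541 in Chow and 2309, 3838 and 24.1 in HFpEF, in replicate order 1, 2 and 3. Chow replicate 3 and HFpEF replicates 1 and 2 thus go against the ventricular description of the tissue. The denominators of the deposited FPKM were not the read totals. They were 0.897 to 0.914 times the recovered reads in Chow and 1.03, 1.06 and 1.27 times in HFpEF, by a formula not given in the sources used here, and the values compared between libraries carry that scaling. Dividing by the recovered reads instead (added once the values were known) moved the median log2 fold change of all tested genes from −0.012 to 0.28. The main counts below are given with and without HFpEF replicate 3.

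Most matrix genes outside the basement membrane were higher in HFpEF hearts. With all 6 libraries none of the 39 tested members passed the adjusted p. The summed FPKM of the 44 members was 1081, 1052 and 1011 in Chow and 1571, 1351 and 3667 in HFpEF, again in replicate order, which is used for all values that follow. The HFpEF libraries were 1.29-fold to 3.50-fold above the Chow mean of 1048 ± 34.8 (SD, n = 3). In limma's moderated test on log2(FPKM + 0.1), 0 of 39 members had a Benjamini-Hochberg adjusted p under 0.05, where 0.0984% of all tested genes did. With a log2 fold change of at least 2 in size as well, the share over all genes was 0.0562%, and again 0 members were called. The lowest adjusted p among the members was 0.0596, for Fbln1. At an unadjusted p under 0.05, 19 members were higher and 1 was lower, against 10.2% and 13.1% of all genes. Every HFpEF library lay above every Chow library for 21 of the 39 members and below for 2, while over all genes these shares were 15.6% and 19.7%. Scaled to recovered reads, 22 members were higher and 0 lower at an unadjusted p, against 25% of all genes higher, and 29 lay above every Chow library and 0 below, against 37.2% of all genes above. Fbln1 alone then passed the adjusted p (0.0458), against 0.485% of all genes.

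Leaving out HFpEF replicate 3 narrowed the spread and brought 14 members past an adjusted p of 0.05, all of them higher in HFpEF. Over all genes 2.86% were higher and 5.5% lower by that rule. The 14 were Fn1, Postn, Tnxb, Sparc and Dpt among the adhesive and matricellular genes, Eln, Efemp1, Fbln1, Fbln2, Mfap4 and Mfap5 among the elastic fibre genes, and Lum, Dcn and Podn among the small leucine-rich genes. In that comparison both remaining HFpEF libraries were the ones with raised atrial transcripts. Without HFpEF replicate 2 in its place, 3 members rose, namely Tgfbi, Fbln5 and Bgn, against 0.33% of all genes.

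**Figure D1:**
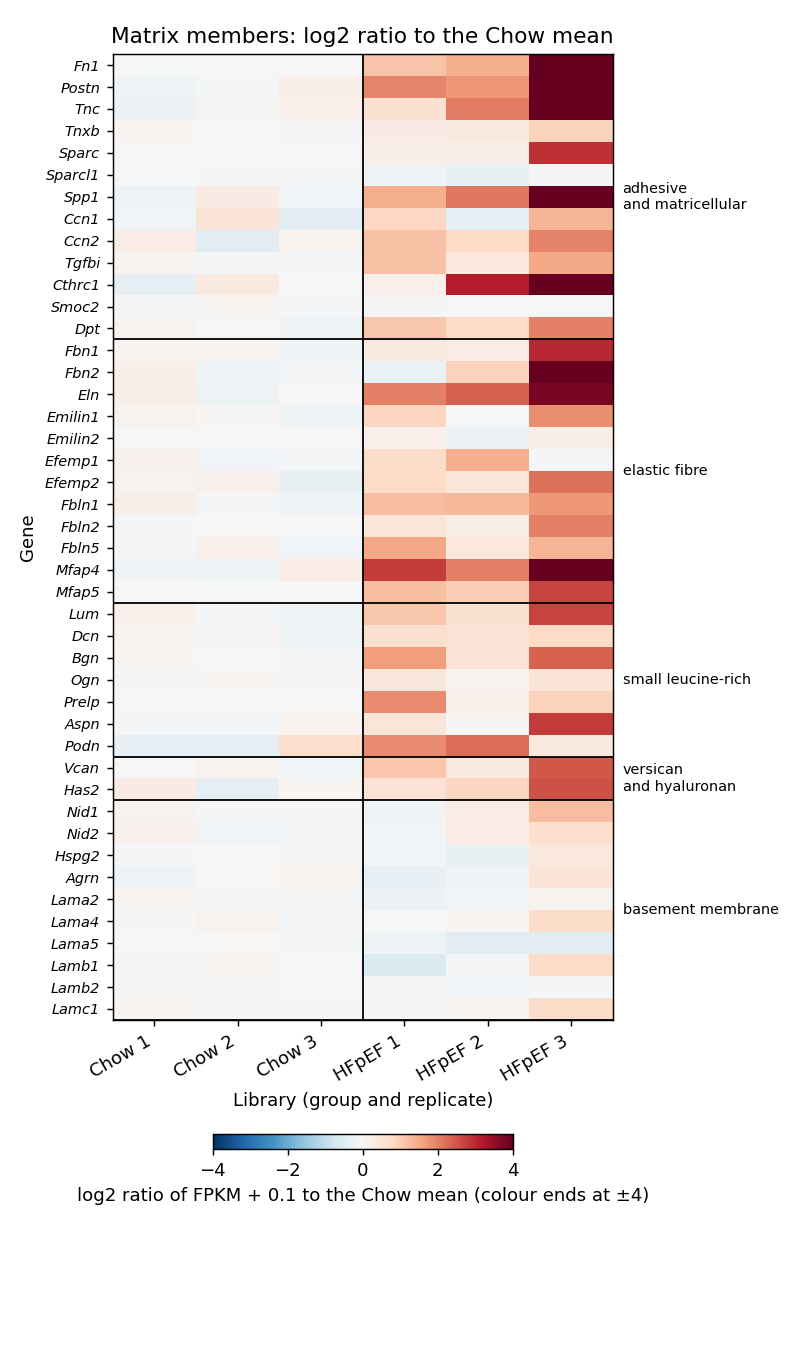
Each row is 1 of the 44 genes and each column 1 library, coloured by the log2 ratio of FPKM + 0.1 to the mean of the Chow libraries, with colours ending at 4 in either direction. The 10 basement membrane rows at the bottom stay pale in HFpEF replicates 1 and 2, most rows above them are red in all 3 HFpEF libraries, and the deepest colours stand in HFpEF replicate 3.

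The size of the difference depended on the class. Over the tested members the median log2 fold change was 0.93, against −0.012 over all tested genes. It was 1.09 for adhesive and matricellular genes, 1.16 for elastic fibre genes, 1.10 for small leucine-rich genes and 0.033 for basement membrane genes. All 19 members higher at an unadjusted p and all 21 above every Chow library lay outside the basement membrane, among 29 tested. Without HFpEF replicate 3 the medians were 0.38 over all members and 0.58, 0.99, 0.85 and −0.11 in the same order of classes, so that the basement membrane median changed sign. It was 0.22 with quantile normalization and 0.33 scaled to recovered reads, where the median of all members was 1.22.

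HFpEF replicate 3 stood apart from the other HFpEF libraries in most members. It was the highest HFpEF library for 33 of 39 members (84.6%), against 38.5% of all tested genes. In 19 members (48.7%) it was more than 2-fold above the mean of HFpEF replicates 1 and 2 on FPKM + 0.1, against 6.07% of all genes. The median log2 ratio of the members to the Chow mean was 0.65, 0.30 and 1.35 in HFpEF replicates 1, 2 and 3. The library with the largest ratio was therefore the HFpEF library in which atrial transcripts, at a summed FPKM of 24.1, were near those of Chow replicates 1 and 2.

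**Figure D2:**
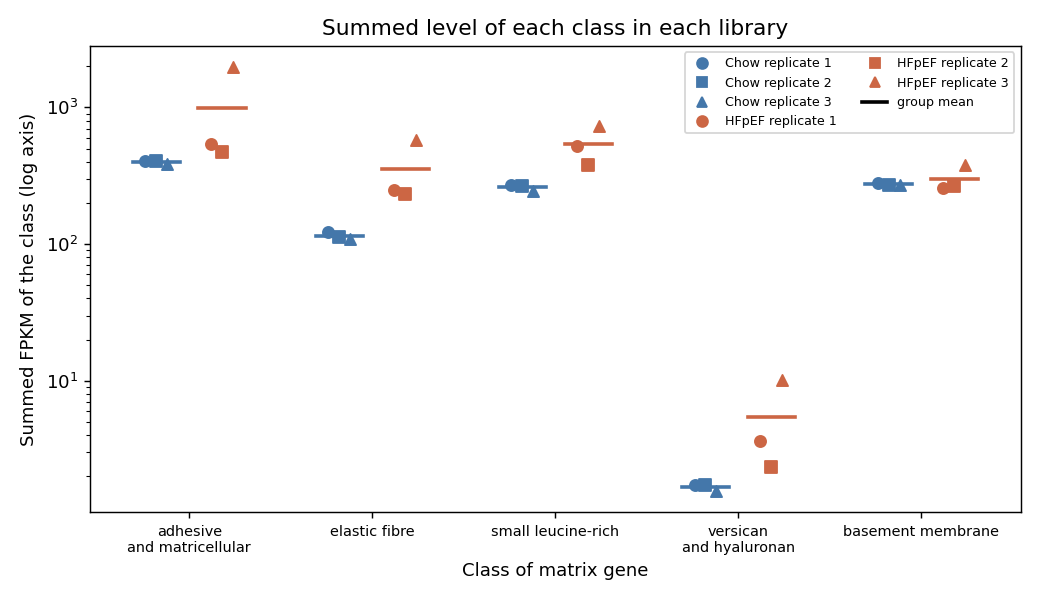
Summed FPKM of each class of matrix gene, on a log axis, with 1 point per library and a bar at each group mean. Elastic fibre genes sum to 109 to 122 in Chow and to 234 to 575 in HFpEF with no overlap, while the basement membrane sums of HFpEF replicates 1 and 2 (258 and 264) lie just under those of Chow (269.6 to 279) on the deposited scale, and all 3 HFpEF sums lie above Chow when scaled to recovered reads.

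The mixture of matrix transcripts also differed between the libraries. Basement membrane genes held 25.8%, 25.6% and 26.9% in Chow and 16.4%, 19.5% and 10.3% in HFpEF of the members' summed FPKM. Their share was lower in every HFpEF library, and it was lowest in HFpEF replicate 3. Elastic fibre genes held 11.3%, 10.7% and 10.8% in Chow and 15.9%, 17.3% and 15.7% in HFpEF, a higher share in every HFpEF library. Small leucine-rich genes held 25.2%, 25.1% and 24.1% in Chow and 33.1%, 27.8% and 19.9% in HFpEF, so HFpEF replicate 3 was on the other side of Chow from replicates 1 and 2. Shares sum to the whole in each library, and a higher share of 1 class lowers the others.

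The promoters of 29 members were matched by symbol in a RefSeq table on GRCm38.p6, each with 250 bases before and 50 bases after the annotated start. Unmatched were Sparcl1, Ccn2, Cthrc1, Smoc2, Fn1, Fbn2, Eln, Mfap4, Mfap5, Lum, Dcn, Has2, Nid2, Lama4 and Lamc1. Those of 4 members are printed here with their coordinates. Postn and Spp1 were above every Chow library in each HFpEF library and far higher still in HFpEF replicate 3, Dpt was higher in all 3 HFpEF libraries by a more even margin, and Lama5 was the tested member with the largest negative log2 fold change. Capitals mark each match, on either strand, to 5 short motifs, and no matches overlap in these windows.
Postn, chr3:54360857-54361156: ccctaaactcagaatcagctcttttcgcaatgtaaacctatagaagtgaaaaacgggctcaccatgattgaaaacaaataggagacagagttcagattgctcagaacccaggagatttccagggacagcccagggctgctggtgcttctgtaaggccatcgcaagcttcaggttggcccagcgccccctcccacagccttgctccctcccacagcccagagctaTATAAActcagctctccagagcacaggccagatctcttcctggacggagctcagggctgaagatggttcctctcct
Spp1, chr5:104434861-104435160: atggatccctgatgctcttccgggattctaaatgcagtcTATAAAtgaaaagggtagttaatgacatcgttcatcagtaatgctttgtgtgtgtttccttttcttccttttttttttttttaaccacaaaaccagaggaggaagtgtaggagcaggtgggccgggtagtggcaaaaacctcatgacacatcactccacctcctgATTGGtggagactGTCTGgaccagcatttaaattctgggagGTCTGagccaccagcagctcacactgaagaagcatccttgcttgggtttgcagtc
Dpt, chr1:164796413-164796712: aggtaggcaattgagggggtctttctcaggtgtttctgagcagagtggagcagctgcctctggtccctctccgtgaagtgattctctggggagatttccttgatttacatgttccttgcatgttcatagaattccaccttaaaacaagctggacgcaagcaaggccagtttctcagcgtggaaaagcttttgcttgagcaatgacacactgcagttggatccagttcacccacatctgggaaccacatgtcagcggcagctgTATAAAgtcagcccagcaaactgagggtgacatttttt
Lama5, chr2:180225810-180226109: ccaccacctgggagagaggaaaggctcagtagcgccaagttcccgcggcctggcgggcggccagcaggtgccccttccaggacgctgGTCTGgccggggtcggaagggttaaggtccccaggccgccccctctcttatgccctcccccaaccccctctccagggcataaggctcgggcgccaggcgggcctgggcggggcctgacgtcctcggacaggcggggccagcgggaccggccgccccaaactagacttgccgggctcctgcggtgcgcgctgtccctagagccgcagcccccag

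Postn, Spp1 and Dpt each hold the TATA box letters TATAAA, with the first base 26 bases before, 211 bases before and 12 bases after the annotated start. Lama5, on the minus strand, holds none of them and 1 match to the SMAD letters CAGAC, here in reverse as GTCTG. Spp1 holds GTCTG as well, with first bases 33 and 5 bases before the start. It also holds the CCAAT letters in reverse as ATTGG, 46 bases before it. Over the 29 promoters TATAAA occurred in 7 (24.1%), against 13.6% of all 32851 promoters of the same length, and CAGAC in 17 (58.6% against 49.6%). The CCAAT box (CCAAT) occurred in 8 (27.6% against 37.4%), the TEAD letters GGAATG in 3 (10.3% against 14.7%) and the AP-1 letters TGANTCA in 2 (6.90% against 7.81%). The members with TATAAA were Aspn, Ccn1, Dpt, Ogn, Postn, Spp1 and Tnc, all of them matricellular or small leucine-rich genes and none from the elastic fibre or basement membrane classes. No promoter was matched for Fbn2, Eln, Mfap4 and Mfap5 of the elastic fibre genes or Nid2, Lama4 and Lamc1 of the basement membrane genes. A difference between classes was not tested. Short letters of this kind match by their length alone in many promoters, and a match describes the window only.

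Fibronectin and periostin stood well above Chow in all HFpEF libraries. Fn1 (ENSMUSG00000026193, chromosome 1 from 71585520 to 71653200, minus strand of GRCm38) encodes fibronectin, the adhesive glycoprotein that integrins bind and on which other matrix proteins assemble. Replicates 1, 2 and 3 had 6.16, 6.11 and 6.22 in Chow and 13.6, 16.8 and 161 in HFpEF, in FPKM. The Chow libraries lay close together, HFpEF replicates 1 and 2 were more than 2-fold higher, and HFpEF replicate 3 was 10.6-fold above the mean of those libraries. HFpEF differed from Chow by 2.42 on the log2 scale (SE 0.89, adjusted p = 0.185). It was 1.28 without HFpEF replicate 3 (adjusted p = 0.0118, 0.0118 to 0.389 over all alternatives).

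Postn (ENSMUSG00000027750, chromosome 3 from 54361109 to 54391037, plus strand) encodes periostin, a matricellular protein of activated fibroblasts that takes part in collagen crosslinking. Its FPKM was 4.27, 4.61 and 5.80 in Chow and 19.2, 16.2 and 356 in HFpEF. Every HFpEF library was above the highest Chow library, and HFpEF replicate 3 was 20.1-fold above the mean of the others. The log2 fold change of 3.28 was the largest among the tested members (standard error 1.14, adjusted p = 0.170). Without HFpEF replicate 3 it was 1.84 (adjusted p = 0.0118, 0.0118 to 0.381 over all alternatives).

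Tenascin-C, osteopontin and Cthrc1, all of them scarce in the adult heart, were abundant in HFpEF replicate 3 alone. For Tnc, the adhesion-modulating glycoprotein, FPKM was 0.181, 0.241 and 0.287 in Chow and 0.409, 1.30 and 22.1 in HFpEF. The FPKM of Spp1, which encodes osteopontin, was 0.0426, 0.103 and 0.0502 in Chow and 0.351, 0.609 and 17.4 in HFpEF, resting on 1, 2 and 1 reads in Chow and 8, 17 and 554 in HFpEF. Cthrc1, a secreted protein of activated fibroblasts, had an FPKM of 0.176, 0.374 and 0.260 in Chow and 0.317, 3.11 and 52.6 in HFpEF. HFpEF replicate 3 was 25.8-fold, 36.3-fold and 30.7-fold above the mean of the other HFpEF libraries in these genes, the 3 largest such ratios of the 44 members. Tnc and Spp1 did not overlap between groups and Cthrc1 did, in HFpEF replicate 1. With no minimum on FPKM their adjusted p was 0.365, 0.316 and 0.374.

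The SPARC family members did not move together. Sparc, the collagen-binding matricellular protein, had an FPKM of 104, 104 and 106 in Chow and 122, 127 and 797 in HFpEF. HFpEF replicates 1 and 2 exceeded the highest Chow library by a small margin, and HFpEF replicate 3 was 6.40-fold above them. Its log2 fold change was 1.14 with all libraries (adjusted p = 0.355) and 0.25 without HFpEF replicate 3 (adjusted p = 0.0494, 0.0494 to 0.533 over all alternatives). For its homolog Sparcl1, the most abundant member in Chow, FPKM was 145, 147 and 139 in Chow and 129.8, 116 and 135 in HFpEF. All HFpEF libraries were below all Chow libraries, at a log2 fold change of −0.18 (adjusted p = 0.379), which was 0.12 with quantile normalization and 0.11 scaled to recovered reads. Smoc2, a modular calcium-binding relative of both, had an FPKM of 12.7, 14.2 and 12.7 in Chow and 12.7, 12.9 and 13.0 in HFpEF, with overlapping groups and a 95% interval of the log2 fold change from −0.25 to 0.19.

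Among the growth factor-responsive matricellular genes, Ccn2 was higher in every HFpEF library. Ccn2 (connective tissue growth factor) had an FPKM of 26.1, 15.9 and 23.8 in Chow and 48.1, 37.1 and 86.1 in HFpEF. Its log2 fold change was 1.31 (adjusted p = 0.119) and 0.97 without HFpEF replicate 3, where it did not pass. Of its exon bases 23.2% are shared with the opposite-strand gene Gm15270. Its relative Ccn1 overlapped between groups, at 20.0, 31.0 and 16.2 in Chow and 38.3, 17.0 and 55.9 in HFpEF. For Tgfbi, an integrin-binding protein induced by TGF-β, FPKM was 8.36, 7.50 and 7.19 in Chow and 17.5, 10.3 and 21.9 in HFpEF, with no overlap and a log2 fold change of 1.03 (adjusted p = 0.119).

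Dermatopontin and tenascin-X, both of which bind collagen and influence its fibrils, had smaller differences than fibronectin and periostin. The FPKM of Dpt (ENSMUSG00000026574) was 58.6, 54.5 and 48.9 in Chow and 114, 92.2 and 218 in HFpEF. No library of 1 group reached the other, and the mean was 2.62-fold higher in HFpEF. The fitted log2 difference was 1.29 with a standard error of 0.31 (adjusted p = 0.118), and Dpt passed without HFpEF replicate 3 (0.93, adjusted p = 0.0161, 0.0161 to 0.359 over all alternatives). Tnxb ran from 17.5 to 19.8 FPKM in Chow and from 23.6 to 35.3 in HFpEF.

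**Figure D3:**
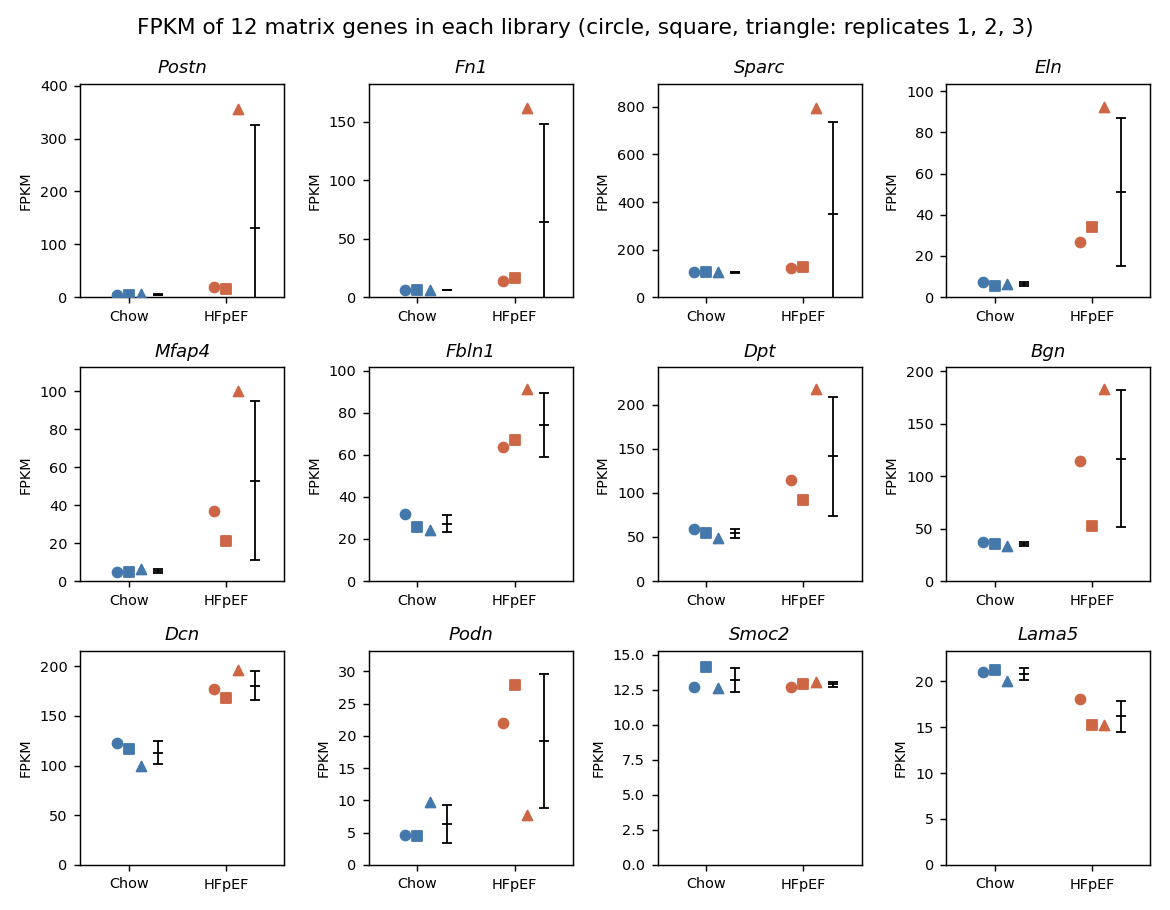
FPKM of 12 matrix genes in each library, with circle, square and triangle for replicates 1, 2 and 3 and a bar for the mean ± SD of each group. HFpEF replicate 3 dominates the HFpEF mean of Postn, Fn1 and Sparc, the HFpEF libraries of Fbln1 and Dcn lie close together above Chow, Podn is low in HFpEF replicate 3, and Lama5 is lower in HFpEF on the deposited scale, though not without overlap when scaled to recovered reads.

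Elastin and both microfibril-associated glycoproteins were above every Chow library in each HFpEF library. Eln (ENSMUSG00000029675, chromosome 5 from 134702593 to 134747323, minus strand) encodes tropoelastin, the soluble precursor of the elastic core. Its FPKM was 7.59, 5.66 and 6.40 in Chow and 26.8, 33.9 and 92.5 in HFpEF. The lowest HFpEF library was more than 3-fold above the highest Chow library. HFpEF differed from Chow by 2.73 on the log2 scale (SE 0.45, adjusted p = 0.0840), and without HFpEF replicate 3 it was 2.19 (adjusted p = 0.00794, 0.00794 to 0.340 over all alternatives).

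Mfap4 (ENSMUSG00000042436, chromosome 11 from 61485431 to 61488900, plus strand) encodes a microfibril-associated glycoprotein that binds tropoelastin and fibrillin. Its FPKM was 4.75, 4.66 and 6.41 in Chow and 36.9, 21.3 and 100.4 in HFpEF. Every HFpEF library exceeded every Chow library by more than 3-fold. The fitted log2 difference was 3.01 with a standard error of 0.53 (adjusted p = 0.0956), and 2.40 without HFpEF replicate 3 (adjusted p = 0.0157, 0.0157 to 0.340 over all alternatives). The other microfibril-associated member, Mfap5, had an FPKM of 4.68, 4.65 and 4.77 in Chow and 11.0, 9.31 and 31.4 in HFpEF. Its Chow libraries lay close together and its HFpEF libraries were all above them (log2 fold change 1.63, adjusted p = 0.123).

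Fibulins bridge elastin, fibrillin and basement membrane proteins, and Fbln1 had the lowest adjusted p of all members. Its FPKM was 31.9, 25.8 and 24.3 in Chow and 63.8, 67.3 and 91.5 in HFpEF, or 27.3 ± 4.02 in Chow and 74.2 ± 15.1 in HFpEF (SD, n = 3 each). HFpEF replicate 3 was only 1.40-fold above the mean of the other HFpEF libraries. HFpEF differed from Chow by 1.43 on the log2 scale (SE 0.18, adjusted p = 0.0596), and 1.27 without HFpEF replicate 3 (adjusted p = 0.0126, 0.0126 to 0.321 over all alternatives). Fbln2 had an FPKM of 19.5, 20.3 and 20.3 in Chow and 27.9, 24.3 and 81.8 in HFpEF, so that its difference from Chow was large in HFpEF replicate 3 and small in the others.

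Fbln5 and Efemp2, which elastic fibre assembly requires, were above every Chow library in each HFpEF library. Fbln5 had an FPKM of 5.07, 6.17 and 4.94 in Chow and 15.8, 7.30 and 13.9 in HFpEF, with HFpEF replicates 1 and 3 well above replicate 2. The FPKM of Efemp2 was 5.07, 5.15 and 3.72 in Chow and 7.99, 6.42 and 21.7 in HFpEF. Their log2 fold changes were 1.11 and 1.16 (adjusted p = 0.120 and 0.192). Efemp1, another fibulin, followed a different order of libraries, at 14.1, 11.5 and 12.3 in Chow and 21.0, 34.6 and 12.1 in HFpEF. HFpEF replicate 3 lay among the Chow libraries for Efemp1, which passed without it (log2 fold change 1.09, adjusted p = 0.0465, 0.0465 to 0.491 over all alternatives).

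Fibrillin transcripts were high in HFpEF replicate 3. Fbn1, the main microfibril component of the adult, had an FPKM of 11.0, 11.1 and 9.33 in Chow and 13.3, 12.9 and 85.4 in HFpEF. The groups did not overlap, but HFpEF replicates 1 and 2 were only slightly above the highest Chow library (log2 fold change 1.22, adjusted p = 0.331). Of its exon bases 20.1% are shared with the opposite-strand gene Gm9913. Fbn2, the fibrillin of development, had an FPKM of 0.228, 0.146 and 0.158 in Chow and 0.131, 0.422 and 4.95 in HFpEF with overlap. The elastin microfibril interfacers Emilin1 and Emilin2 also overlapped between groups, with log2 fold changes of 0.91 and 0.070.

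**Figure D4:**
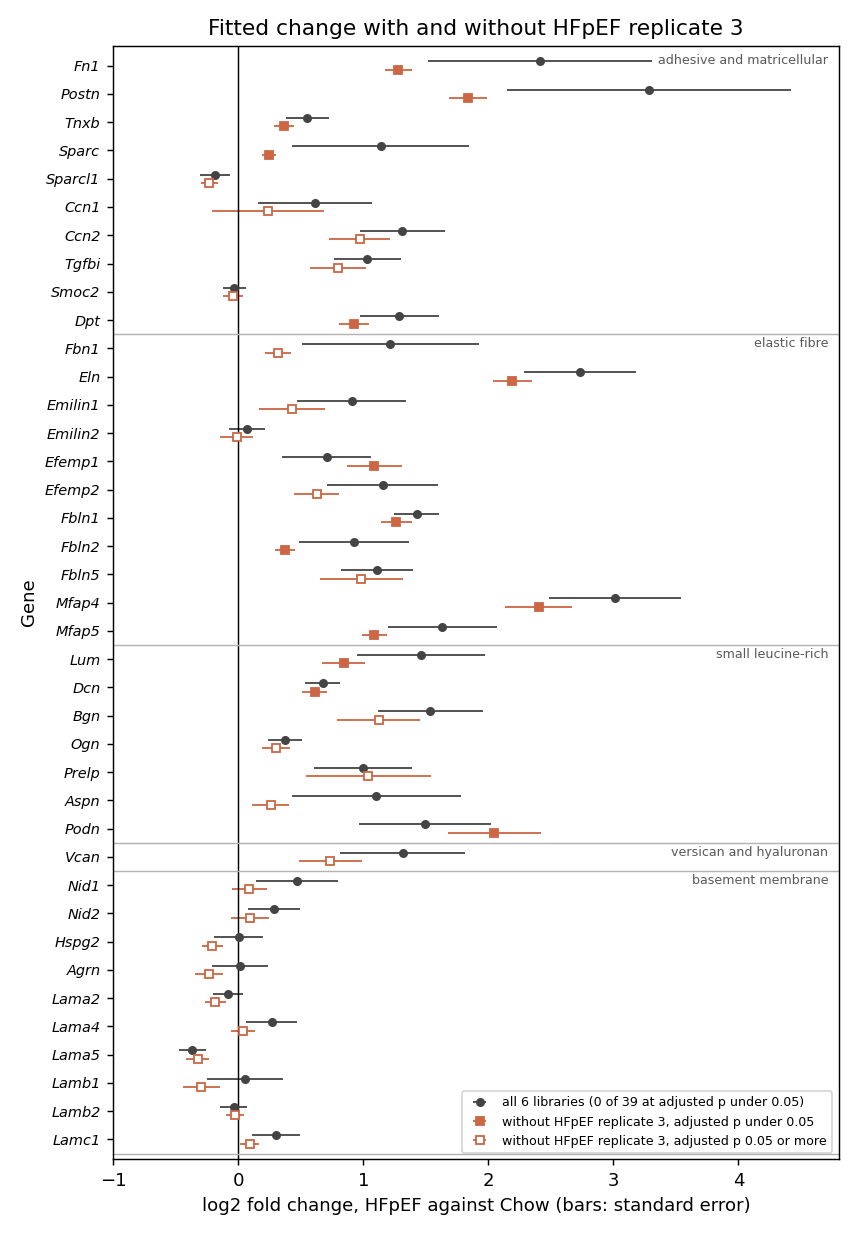
Fitted log2 fold change of the 39 tested members, HFpEF against Chow, with standard errors, from all 6 libraries (dark circles) and without HFpEF replicate 3 (orange squares, filled where the adjusted p was under 0.05). Bars of Postn and Fn1 shorten and their values move toward 0 without that library, those of Eln, Mfap4 and Fbln1 move less, and basement membrane genes stay near 0 in both fits.

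Decorin, the most abundant small leucine-rich member and a binder of collagen fibrils and TGF-β, was moderately higher. Dcn (ENSMUSG00000019929) had an FPKM of 123, 117 and 99.7 in Chow and 177, 168 and 196 in HFpEF, or 113 ± 12.0 in Chow and 180.5 ± 14.4 in HFpEF (SD, n = 3 each). The HFpEF libraries were close to each other and all above Chow. The fitted log2 difference was 0.67 with a standard error of 0.14 (adjusted p = 0.103) and 0.61 without HFpEF replicate 3 (adjusted p = 0.0240, 0.0240 to 0.359 over all alternatives).

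Biglycan and lumican, which share the collagen-binding role, varied more between HFpEF hearts. Bgn had an FPKM of 37.5, 35.7 and 33.4 in Chow and 114, 52.6 and 183 in HFpEF, and Lum of 32.0, 27.0 and 25.3 in Chow and 59.8, 42.6 and 182 in HFpEF. Neither overlapped between groups. In Bgn HFpEF replicates 1 and 3 were above replicate 2, and in Lum replicate 3 was 3.56-fold above the mean of the others. The log2 fold changes were 1.54 and 1.46 (adjusted p = 0.126 and 0.171). Lum passed without HFpEF replicate 3 and Bgn without HFpEF replicate 2.

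The remaining small leucine-rich genes were not all led by the same library. Prelp, an anchor between basement membrane and collagen, had an FPKM of 17.1, 17.1 and 16.7 in Chow and 63.0, 19.5 and 31.9 in HFpEF, highest in HFpEF replicate 1. Aspn, or asporin, had an FPKM of 7.67, 7.42 and 8.75 in Chow and 11.1, 8.20 and 55.6 in HFpEF, highest in HFpEF replicate 3. Podn, or podocan, had an FPKM of 4.70, 4.49 and 9.74 in Chow and 22.0, 27.9 and 7.71 in HFpEF, highest in HFpEF replicate 2. Podn overlapped because HFpEF replicate 3 lay below Chow replicate 3. Without HFpEF replicate 3 its log2 fold change was 2.05 (adjusted p = 0.0415, 0.0415 to 0.400 over all alternatives). Ogn, or mimecan, differed little, at 50.3 to 55.6 in Chow and 57.5 to 74.3 in HFpEF.

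Podn ordered the libraries nearly as the atrial transcripts did. Its 3 highest libraries, HFpEF replicates 2 and 1 and Chow replicate 3, were also the 3 highest for the summed FPKM of the 5 atrial markers. Of these markers 1 of 5 was higher in HFpEF at an unadjusted p, against 10.2% of all genes, and Sln was at 0 in Chow replicates 1 and 2. Efemp1 shared HFpEF replicates 2 and 1 as its highest libraries. The part of atrial tissue in either gene was not tested.

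Versican and hyaluronan form the loose, hydrated matrix of developing and injured tissue. Vcan had an FPKM of 1.41, 1.58 and 1.32 in Chow and 3.24, 1.86 and 8.43 in HFpEF, with no overlap between groups and a log2 fold change of 1.32 (standard error 0.50, adjusted p = 0.191). Has2, which synthesises hyaluronan, was near the limit of detection at 0.298, 0.141 and 0.234 in Chow and 0.375, 0.474 and 1.77 in HFpEF, resting on 18, 7 and 12 in Chow and 22, 34 and 145 in HFpEF reads. HFpEF replicate 3 was highest in both genes.

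Basement membrane genes differed least. None of the 10 was higher at an unadjusted p under 0.05, against 10.2% of all genes. Without overlap, 15.6% of all genes lay above Chow and 19.7% below, so counts in 10 genes do not set this class apart from them. In 9 of the 10 the groups overlapped. Lama5 (ENSMUSG00000015647, chromosome 2 from 180176373 to 180225859, minus strand), a laminin α chain prominent in vessels, was the exception, with an FPKM of 21.0, 21.2 and 20.0 in Chow and 18.1, 15.2 and 15.2 in HFpEF. All HFpEF libraries were below all Chow libraries, and the log2 fold change came to −0.37 (SE 0.11, adjusted p = 0.136), past the unadjusted threshold only. It was −0.070 scaled to recovered reads, where the groups overlapped.

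The abundant laminin chains were close to Chow in HFpEF replicates 1 and 2. Lamb2, a β chain of muscle laminins, had an FPKM of 77.0, 71.2 and 74.8 in Chow and 76.7, 69.4 and 71.7 in HFpEF, with a 95% interval of the log2 fold change from −0.29 to 0.22. For Lamc1, the γ chain shared by most laminins, FPKM was 37.9, 34.6 and 35.0 in Chow and 36.6, 39.9 and 59.5 in HFpEF. Perlecan, encoded by Hspg2, had an FPKM of 51.6, 53.6 and 55.7 in Chow and 50.1, 43.2 and 72.0 in HFpEF, below Chow in HFpEF replicates 1 and 2 and above it in replicate 3. Its interval ran from −0.47 to 0.47.

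The nidogens, which link laminin to collagen networks, were highest in HFpEF replicate 3. Nid1 had an FPKM of 35.3, 31.3 and 30.3 in Chow and 29.5, 40.0 and 75.6 in HFpEF and Nid2 of 8.58, 7.05 and 7.11 in Chow and 7.03, 9.29 and 12.1 in HFpEF. Both were above every Chow library in HFpEF replicates 2 and 3 and below every Chow library in replicate 1, and Nid2 shares 8.45% of its exon bases with Rtraf on the opposite strand. Agrn, Lama2, Lama4 and Lamb1 had log2 fold changes between −0.084 and 0.27. Lama2, the α chain of the cardiomyocyte basement membrane, and Hspg2 were below every Chow library once HFpEF replicate 3 was left out, which with Lama5 made 3 of the 10 genes, against 23.9% of all genes.

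Other matrix genes were examined from 5 further lists with 89 genes, of which 65 were tested. Of these, 33 were higher and 2 lower at an unadjusted p under 0.05, against 10.2% and 13.1% of all genes. The same shares stand beside the counts of each list below. None passed the adjusted p, and the median log2 fold change was 0.85. Without HFpEF replicate 3, 16 rose and 1 fell at an adjusted p under 0.05, against 2.86% and 5.5% of all genes, and the median was 0.47. The list of other glycoproteins had 18 higher and 2 lower of 29, led by Cilp2, Ccn3 and Thbs1 with log2 fold changes of 3.94, 3.10 and 3.00. Their adjusted p was 0.179, 0.183 and 0.179. In HFpEF replicates 1 and 3 the FPKM was 40.4 and 30.3 for Ccn3 and 17.1 and 44.7 for Thbs1. HFpEF replicate 2 was near Chow for both genes, at 1.69 and 1.74 against highest Chow values of 1.67 and 1.53. Cilp2, a cartilage intermediate layer protein, had an FPKM of 0.0814, 0.178 and 3.87 in Chow and 12.6, 29.6 and 1.82 in HFpEF and was highest where atrial transcripts were.

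Latent TGF-β binding proteins and microfibril partners had 5 of 9 tested genes higher at an unadjusted p. Ltbp2 had an FPKM of 0.215, 0.354 and 0.606 in Chow and 3.68, 1.05 and 16.0 in HFpEF, Mfap2 of 3.19, 2.67 and 3.76 in Chow and 8.11, 6.48 and 32.7 in HFpEF and Ltbp3 of 14.4, 12.5 and 12.4 in Chow and 25.2, 20.5 and 43.5 in HFpEF. None of the 3 overlapped between groups. Among other proteoglycans 2 of 7 were higher, Fmod (fibromodulin) with a log2 fold change of 1.93 and Prg4 (lubricin) with 1.62. Of other basement membrane genes 1 of 7 was higher, the laminin γ chain gene Lamc3 (1.67), a count near the 10.2% of all genes. Lamc3 was scarce in Chow, at an FPKM of 0.231 to 0.336.

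Of 13 tested matrix receptors outside the integrins, 7 were higher at an unadjusted p. Cd44, the hyaluronan receptor, had a log2 fold change of 1.58, the syndecan Sdc1 of 1.43 and the glypican Gpc3 of 1.17, with adjusted p of 0.197, 0.152 and 0.0963. The FPKM of Cd44 was 1.56, 1.62 and 1.42 in Chow and 3.02, 2.53 and 14.2 in HFpEF, with HFpEF replicate 3 far above the rest. Gpc3 was more even, at 7.44, 4.50 and 5.23 in Chow and 12.5, 15.0 and 11.1 in HFpEF.

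Markers of cell types moved with the matrix genes in part. For the marker counts that follow, 10.2% of all genes were higher and 13.1% lower at an unadjusted p. Of 8 fibroblast markers 5 were higher at an unadjusted p, and their summed FPKM ran from 515 to 658 in Chow and from 759 to 915 in HFpEF. Gsn made up most of these sums, at 599, 512 and 461 in Chow and 816, 831 and 495 in HFpEF, with overlap between groups. Among the HFpEF libraries, replicate 3 was the lowest for Gsn but the highest for 7 of the 8 markers. Of 9 markers of activated fibroblasts 6 were higher, with sums of 67.4, 86.9 and 92.4 in Chow and 474, 79.1 and 461 in HFpEF. Most of that sum was Acta2, which smooth muscle also expresses, and without it the sums were 14.1, 13.8 and 14.5 in Chow and 52.2, 30.3 and 199 in HFpEF, above Chow in every HFpEF library. Timp1, Lox and Ltbp2 of that list were highest in HFpEF replicate 3, and Acta2 in HFpEF replicate 1. Ltbp2, Comp and Cilp also belong to the further matrix lists, so these sums are not independent of the matrix genes. Fap had 1.22, 1.29 and 0.803 in Chow and 0.995, 0.980 and 3.64 in HFpEF. Meox1 had 5.45, 4.97 and 4.64 in Chow and 8.52, 4.79 and 15.1 in HFpEF. Acta2, Fap and Meox1 overlapped between groups, while Runx1 did not, at 0.210 to 0.261 in Chow and 0.510 to 1.91 in HFpEF. In bulk tissue, more cells of a type and more RNA per cell cannot be told apart.

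Of 8 macrophage markers 3 were higher at an unadjusted p, and all 8 had a positive log2 fold change. Their sum of 272, 281 and 219.7 in Chow and 273, 369.6 and 909 in HFpEF was largest in HFpEF replicate 3. Proliferation markers summed to 2.34, 1.77 and 1.28 in Chow and 2.49, 1.36 and 9.52 in HFpEF, with 0 of 2 tested genes past an unadjusted p. Ventricular cardiomyocyte markers were below Chow in all 7 genes and all HFpEF libraries, 4 of them at an unadjusted p, though with quantile normalization the log2 fold changes of Myh6, Actc1 and Tnni3 turned positive, with sums of 14511 to 16060 in Chow and 10264, 10932 and 7013 in HFpEF. Endothelial markers were lower in 4 of 7 genes at an unadjusted p, while Pecam1, Tek and Emcn turned positive when scaled to recovered reads, with sums of 199 to 214 in Chow and 158 to 172 in HFpEF. HFpEF replicate 3, with the highest matrix sums, thus had the highest macrophage and proliferation sums, the lowest ventricular sum and the lowest mitochondrial share. The part of any of these in the matrix values was not tested.

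Smooth muscle and pericyte markers summed to 335, 339 and 374 in Chow and 722, 245 and 556 in HFpEF. Of their 9 tested genes 0 were higher and 2 lower at an unadjusted p, against 10.2% and 13.1% of all genes. Markers of cartilage, tendon and valve were higher in 3 of 5 tested genes at an unadjusted p. They summed to 10.6, 9.60 and 12.0 in Chow and 67.2, 17.6 and 51.1 in HFpEF. Tnmd, Col9a1 and Matn3 were at 0 in all Chow libraries and in HFpEF replicate 2, and at an FPKM of at most 0.309 in HFpEF replicates 1 and 3. Acan, Comp, Fmod and Chad also belong to the further matrix lists, so these sums are not independent of the matrix genes. The smooth muscle and cartilage lists were both larger in HFpEF replicates 1 and 3 than in replicate 2, as Bgn, Fbln5 and Tgfbi also were. That order was not particular to these genes. Many other members had it, among them Postn, Dpt, Mfap4, Lum, Dcn, Vcan and Hspg2. Adipocyte markers, of which 5 of 7 tested were higher and 1 lower at an unadjusted p, summed to 92.6 to 103 in Chow and 158, 161 and 112 in HFpEF. Most of the Chow sum was Fabp4, the lower gene, at 84.3, 94.8 and 92.9 in Chow and 60.5, 64.0 and 69.8 in HFpEF. With all 6 libraries 4 of the 7 (Cfd, Car3, Adipoq and Cidec) passed the adjusted p in limma, against 0.0984% of all genes. The 5 higher genes reached the FPKM minimum only in the HFpEF libraries, so their passing is not independent of that filter. Over the alternatives the highest adjusted p of Cfd, Car3, Adipoq and Cidec was 0.0612, 0.141, 0.193 and 0.193. Cfd reached 35.3, 37.8 and 22.9 in HFpEF. Adipoq, Cfd, Cidec, Lep and Retn were at 0 in all Chow libraries.

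Mesothelial and epicardial markers were higher in 4 of 7 genes at an unadjusted p, with a positive log2 fold change in all 7. They summed to 30.6, 19.1 and 28.7 in Chow and 38.2, 137 and 62.9 in HFpEF, highest in HFpEF replicate 2 as was Efemp1. Schwann cell markers were higher in 3 of 5 at an unadjusted p, with a positive log2 fold change in all 5. These summed to 3.88 to 5.31 in Chow and 6.00 to 9.56 in HFpEF. The bone list had Ibsp at 0 in all 6 libraries and sums of 8.07 to 9.26 in Chow and 5.65 to 6.56 in HFpEF. The part of these tissues in the matrix values was not tested either.

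**Figure D5:**
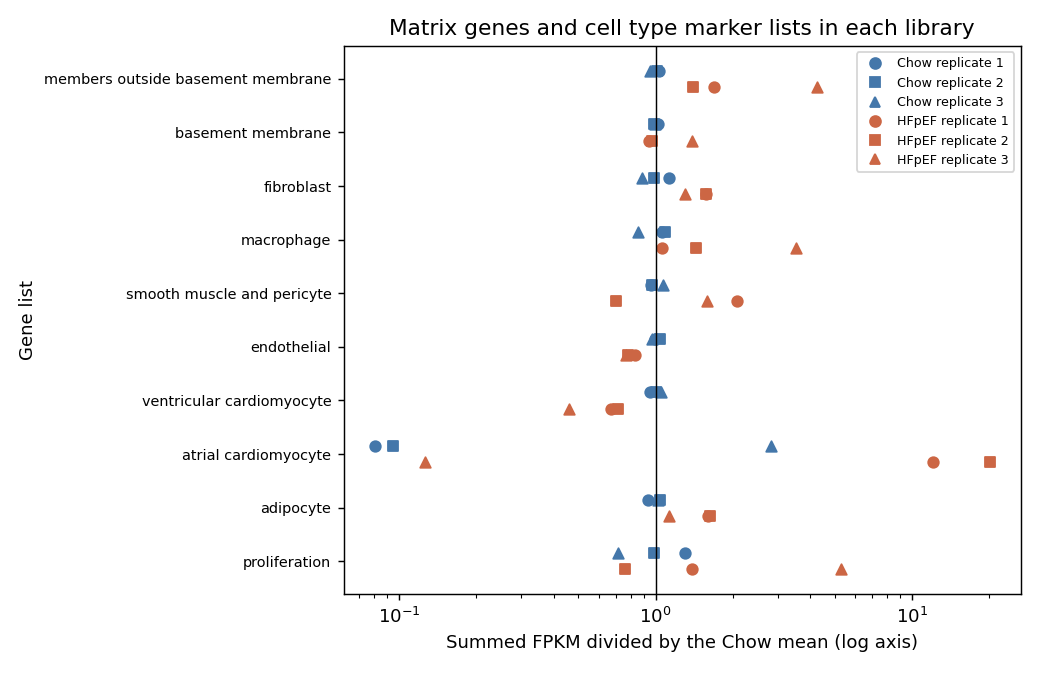
Summed FPKM of the matrix members and of cell type marker lists in each library, divided by the Chow mean, on a log axis. Members outside the basement membrane reach 1.40-fold to 4.24-fold in HFpEF, macrophage and proliferation markers are highest in HFpEF replicate 3, ventricular markers are lowest there, and atrial markers are high in HFpEF replicates 1 and 2 and in Chow replicate 3. Gsn makes up most of the fibroblast sums, and Fabp4 most of the adipocyte sums in Chow.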

How the data were processed

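RNA-seq libraries from hearts of 3 Chow and 3 HFpEF mice were grouped by the sample labels. The authors used HISAT2 for alignment and featureCounts for gene-level counting, and deposited FPKM, whose denominators differ from the read totals. The labels name GRCm38 (mm10), while the annotation release and the strand setting are not given in the sources used here. Symbols and exon lengths came from GENCODE M21, which holds 54495 of the 54532 identifiers. FPKM times exon length was a whole multiple of 1 step for 96.1% to 96.2% of values (relative tolerance 1e-06), which gave read numbers. These cover counting error only, as do their sums.

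FPKM was scaled by the median of ratios (factors 0.999 to 1.00), a pseudocount of 0.1 entered the log2 values, and limma 3.58.1 was run on them (eBayes with trend and robust options, R 4.3.3, Python 3.11.15). Tested genes reached 0.5 FPKM in 3 or more libraries. Intervals are 95%. A fold change on this scale understates low genes. Ratios were compared by a two-sided exact permutation test, whose smallest p for 3 against 3 is 0.1. The fit was also run on simulated data with the same dispersion in every library and no library set apart. That run does not cover a library as far from its group as HFpEF replicate 3.

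Alternatives were quantile normalization, unscaled FPKM, pseudocounts of 0.01 and 1, a minimum of 1 FPKM or none, eBayes without its options, voom on recovered reads, FPKM scaled to total recovered reads (added after the data were seen), the replicate number as a block, a log2 fold limit of 1, and leaving out each library. Values in every library are given for members with the largest change or highest level of their class, without overlap and with a log2 fold change of at least 0.5 without HFpEF replicate 3, lower, or with HFpEF replicate 3 over 4-fold apart. Smoc2, Ccn1 and Efemp1 were added after their values were seen. Members, lists and tests were chosen with earlier results of these data known. Of the members, 16 share exon bases with another gene, over 10% of them in Ccn2, Fbn1 and Spp1, where the counting could divide reads.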

Additional observations from a re-analysis of the deposited data

How the results depend on the processing

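The libraries decided the counts. Leaving out 1 library at a time, members higher at an unadjusted p under 0.05 numbered 11 to 22 (19 with all libraries; 12, 11 and 11 without Chow replicates 1, 2 and 3) and members lower 1 to 3, while members below every Chow library numbered 2 to 4. The count over all genes, in either direction, also fell without a Chow library. It was 3320 with all libraries and 2081, 1911 and 2101 without Chow replicates 1, 2 and 3. Members with an adjusted p under 0.05 in limma numbered 0 to 14. They were 3 without HFpEF replicate 2 and 14 without HFpEF replicate 3, of which 3 and 8 had a log2 fold change of at least 1 and 1 and 3 of at least 2. The median log2 fold change of the members ran from 0.38 without HFpEF replicate 3 to 1.25, that of small leucine-rich members from 0.85 to 1.40 (without HFpEF replicate 2), and that of basement membrane members from −0.11 without HFpEF replicate 3 to 0.27. Scaled to recovered reads, 1 member (Fbln1, log2 fold change 1.72) had an adjusted p under 0.05 and a log2 fold change of at least 1, 0 were lower at an unadjusted p, 0 were below every Chow library, and the small leucine-rich median was 1.40. No other alternative run gave a member an adjusted p under 0.05, and voom had 19 members higher and 1 lower at an unadjusted p.

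Over all genes an adjusted p under 0.05 was reached by 14 genes, by 73 scaled to recovered reads, 32 without the eBayes options, 5 and 3 at pseudocounts of 0.01 and 1, 0 with voom on recovered reads (3356 at an unadjusted p), and 1189, 53 and 3 without HFpEF replicates 3, 2 and 1, and by 2 without any 1 Chow library. The sign of the log2 fold change turned for Sparcl1 and Lamb2 with quantile normalization and scaled to recovered reads, Lama2 scaled to recovered reads, Smoc2 with both and without Chow replicate 2, Emilin2 and Lamb1 without HFpEF replicate 3, and Hspg2 and Agrn with voom, without Chow replicate 1 and without HFpEF replicate 3. The cause was not tested.

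Replicate numbers occur in both groups, but samples of the same number did not deviate together (correlations of −0.041, −0.073 and −0.057). The labels do not say whether they share more than a number, and so few libraries cannot settle it. With the replicate number as a block, 16 members were higher at an unadjusted p, 0 members passed the adjusted p and 2 genes of all tested did. An unadjusted p under 0.05 in either direction was then reached by 3005 of all tested genes, against 3320 in the main fit.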

Other observations

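Ratios between related matrix genes were compared within each library, which removes what scales both alike. The 11 pairs were chosen after their values were seen, and none had an adjusted p under 0.05 by the exact permutation test, where the smallest unadjusted p is 0.1. The ratio of Mfap5 to Mfap4 FPKM was 0.985, 1.00 and 0.744 in Chow and 0.298, 0.437 and 0.313 in HFpEF, lower in every HFpEF library (exact permutation p = 0.1, 0.367 adjusted over the 11 pairs). The ratio of Lama4 to Lama2 was 0.865, 1.09 and 0.932 in Chow and 1.13, 1.11 and 1.46 in HFpEF, and that of Sparc to Sparcl1 0.717, 0.708 and 0.762 in Chow and 0.940, 1.10 and 5.90 in HFpEF, both higher in every HFpEF library at the same p. The other 8 pairs overlapped between groups. Among them Bgn to Dcn was 0.306, 0.305 and 0.335 in Chow and 0.644, 0.313 and 0.931 in HFpEF, with HFpEF replicate 2 among the Chow libraries, and Efemp2 to Efemp1 was 0.360, 0.446 and 0.303 in Chow and 0.381, 0.186 and 1.79 in HFpEF, with HFpEF replicate 3 alone above Chow.

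Sparc took 9.63%, 9.89% and 10.5% in Chow and 7.77%, 9.41% and 21.7% in HFpEF of the summed FPKM of the 44 members, Postn took 0.395%, 0.438% and 0.573% in Chow and 1.22%, 1.20% and 9.72% in HFpEF and Sparcl1 took 13.4%, 14.0% and 13.8% in Chow and 8.27%, 8.58% and 3.69% in HFpEF. In HFpEF replicate 3 Sparc was the most abundant member, and Sparcl1 held that place in all 3 Chow libraries.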
